A study of Rattus norvegicus with 96 samples.

Results

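A set of 10 genes, out of 14218 that had a probe set of their own on the array, was followed through 8 brain regions of rats with and without a history of drinking alcohol. They were Palld, Bod1l1, Topbp1, Eif3c, Hipk2, Klf12, Cpne4, Gripap1, Mpp2 and Mrpl28, and they were picked because their signal differed between alcohol-naive and drinking rats in the medial prefrontal cortex (mPFC). The mPFC arrays therefore chose the genes, and their mPFC values are given below as a description, with no test. The rule used no values of the other 7 regions, and the tests are on those. They came from the same rats as the mPFC, and the choice was made with earlier results of these data known. Each gene was read by its brightest probe set, the group of short oligonucleotides that the array carries for one transcript.

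Samples came from adult male Wistar rats in 3 groups. Non-dependent rats had worked a lever for 10% alcohol for 4 weeks. Dependent rats had the same self-administration and then 4 weeks of intermittent alcohol vapor, and both drinking groups were taken after 3 weeks of abstinence. Naive rats were of matched age and had no alcohol. Microdissected pieces of the mPFC, the core (NAcC) and shell (NAcSh) of the nucleus accumbens, the central (CeA) and basolateral (BLA) amygdala, the dorsolateral (dlBNST) and ventral (vBNST) bed nucleus of the stria terminalis and the ventral tegmental area (VTA) gave 4 arrays per region and group. Only males were studied, the pieces hold mixed cell types, and fewer cells of a type cannot be told apart from less RNA per cell.

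Of the 96 arrays, 92 were used. The 4 left out (1 non-dependent array each of the CeA, the BLA and the VTA, and 1 dependent array of the vBNST) stood apart, since their highest correlation with any other array was 0.375 to 0.960 against at least 0.990 for the arrays kept, and their bacterial hybridization controls read 10.8 to 14.3 against 7.44 to 10.4. Values are log2 signals, so that a difference of 1 is a 2-fold change, and the small number of arrays in a group sets the precision. The labelled tissues carried their defining markers, given as means over arrays. Slc17a7, the vesicular glutamate transporter of cortical neurons, read 11.38 in the mPFC, 7.43 in the BLA and at most 3.74 elsewhere. The dopamine genes Th and Slc6a3 read 9.59 and 10.47 in the VTA. In the NAcSh, Slc17a7 (3.74, standard deviation 1.13) and Neurod6 (4.36, standard deviation 2.09) varied widely between arrays. Neurod6 read 10.59 in the mPFC and 10.73 in the BLA. The part of this in the NAcSh values was not tested. Tbr1, another cortical marker, was dim in every region, at 2.35 in the mPFC.

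The 10 genes belong to different machineries. Palladin (Palld) bundles actin filaments and ties them to adhesion sites, which shapes neurites and spines. Bod1l1 protects stalled replication forks, Topbp1 switches on the ATR checkpoint kinase at such forks, and Eif3c is a core subunit of the factor that loads the small ribosomal subunit onto mRNA. Hipk2 is a nuclear kinase that acts on transcription factors and co-repressors, and Klf12 is a Kruppel-like transcriptional repressor that binds CACCC-type elements. Cpne4 is a copine, a protein that moves to membranes when calcium rises. Gripap1 works on recycling endosomes that return AMPA-type glutamate receptors to the synapse, Mpp2 is a membrane-associated guanylate kinase, a family of synaptic and junctional scaffolds, and Mrpl28 is part of the large subunit of the mitochondrial ribosome.

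In the GRCr8 assembly of the rat genome (RefSeq), Palld lies on chromosome 16 from 33238943 to 33632236 and Bod1l1 on chromosome 14 from 73320880 to 73375662. Both are on the plus strand, and they were the members called over the 7 regions outside the mPFC, so the 250 bases before their first annotated start are shown. Capitals mark GGGCGG (the GC box), CACCC, or the E-box CANNTG, each on either strand.
Palld, chr16:33238693-33238942: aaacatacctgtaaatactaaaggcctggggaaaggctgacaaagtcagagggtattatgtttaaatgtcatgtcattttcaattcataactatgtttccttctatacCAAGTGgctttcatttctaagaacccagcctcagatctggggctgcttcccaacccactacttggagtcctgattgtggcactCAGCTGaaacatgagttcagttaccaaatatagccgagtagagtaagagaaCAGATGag
Bod1l1, chr14:73320630-73320879: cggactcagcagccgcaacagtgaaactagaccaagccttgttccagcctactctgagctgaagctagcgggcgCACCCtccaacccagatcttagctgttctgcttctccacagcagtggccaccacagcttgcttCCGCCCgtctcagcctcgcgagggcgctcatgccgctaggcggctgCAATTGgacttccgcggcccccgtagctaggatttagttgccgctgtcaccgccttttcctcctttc

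The Palld stretch held 3 E-boxes, no GC box and no CACCC, at 41.6% G and C. The Bod1l1 stretch was richer in G and C, at 60.4%, and held 1 match to each of the 3 motifs. Palld has 5 annotated start windows, Topbp1 3 and each other member 1. Over windows of 300 bases (250 before the start and 50 after), and with each gene counted by its first window alone, 5 of the 10 members held GGGCGG against 33.1% of 33469 windows, 3 held CACCC against 54.9%, 7 held CANNTG against 72.1%, 3 held TGACG, the short form of a cAMP response element, against 21.2%, 2 held TATAAA against 14.2%, and none held the full cAMP response element TGACGTCA, which 1.83% held. The later windows can differ: Palld holds CACCC in its windows 3 to 5 and GGGCGG in 4 and 5, and Topbp1 holds TATAAA and an E-box in its window 3. The GC share of the first windows ran from 38.3% in Cpne4 to 82.7% in Hipk2, with 6 of 10 above the median of all windows, 51.7%. The other members lie on chromosome 8 (Topbp1, 112766791 to 112815203, and Cpne4, 114056152 to 114531855), 1 (Eif3c, 190565183 to 190583067), 4 (Hipk2, 68399358 to 68586404), 15 (Klf12, 83037548 to 83469998), X (Gripap1, 17350817 to 17380626) and 10 (Mpp2, 87511638 to 87544710, and Mrpl28, 15653006 to 15656062).

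In the mPFC, 4 members had a higher signal in drinking than in naive rats and 6 a lower one. Palld read 5.34, 5.40, 5.29 and 5.32 on the naive arrays, 6.32, 6.38, 6.03 and 6.42 on the non-dependent and 6.10, 6.30, 6.28 and 5.87 on the dependent. The naive arrays were tightly grouped and all 8 drinking arrays lay above them. Bod1l1 read 6.91, 7.03, 6.51 and 6.12 in naive rats, 8.04, 7.79, 8.31 and 8.44 in non-dependent rats and 8.35, 9.07, 7.67 and 8.84 in dependent rats, the largest difference of the 10 at 1.67 ± 0.25 (SE). Topbp1 read 4.18, 4.02, 4.51 and 4.22, then 5.14, 5.40, 5.39 and 4.95, then 5.42, 5.66, 5.02 and 4.87 in the same order of groups. Eif3c read 8.41, 8.60, 8.18 and 7.41, then 9.26, 9.39, 9.52 and 9.36, then 9.55, 9.92, 8.61 and 9.42. For Eif3c the highest naive array (8.60) and the lowest dependent array (8.61) almost touched.

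The 6 members that were lower in drinking rats also had groups that did not overlap. Hipk2 read 7.46, 6.88, 7.26 and 7.27 on naive arrays, 5.93, 6.10, 6.11 and 6.24 on non-dependent and 6.26, 5.62, 6.43 and 6.04 on dependent arrays. Gripap1 read 9.40, 9.05, 9.24 and 9.74, then 7.88, 7.51, 7.58 and 8.18, then 8.35, 7.63, 8.83 and 8.22. The 2 drinking groups lay close for Hipk2 (dependent minus non-dependent -0.0085) and apart by 0.47 for Gripap1. Cpne4 read 8.02, 8.27, 8.20 and 7.95, then 6.73, 6.84, 6.33 and 6.64, then 7.31, 6.83, 7.84 and 7.37. Mpp2 read 6.01, 5.43, 5.74 and 5.96, then 4.87, 4.51, 4.57 and 4.98, then 5.39, 5.04, 5.27 and 5.0. In both genes the non-dependent group had the lowest mean, and for Mpp2 alone among the 10 the 2 drinking groups did not overlap, against 2.63% of genes tested. Mrpl28 read 7.35, 7.58, 7.42 and 7.52, then 6.86, 7.20, 7.0 and 6.88, then 6.68, 6.73, 6.80 and 6.89. Klf12 read 7.79, 7.80, 7.72 and 7.63, then 6.31, 7.56, 7.08 and 7.61, then 5.63, 6.01, 6.39 and 6.15, so that its non-dependent arrays spread from just under the naive level down to the dependent level.

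Drinking (the mean of both drinking groups) minus naive in the mPFC was 1.67 for Bod1l1, 1.23 ± 0.24 for Eif3c, 1.0 ± 0.16 for Topbp1 and 0.88 ± 0.10 for Palld, and -1.34 ± 0.21 for Gripap1, -1.14 ± 0.22 for Klf12, -1.13 ± 0.15 for Hipk2, -1.12 ± 0.16 for Cpne4, -0.83 ± 0.14 for Mpp2 and -0.59 ± 0.091 for Mrpl28 (all SE). Against naive rats, all 10 had groups that did not overlap, for the drinking groups together and for each of them. Over the 8989 genes tested there, this held for 2.88% (drinking), 11.9% (non-dependent) and 7.16% (dependent), and 0.934% (84 genes) passed an adjusted p under 0.05 in limma for drinking minus naive, none of which is evidence on genes chosen from these arrays. Among the members, dependent and non-dependent rats differed most in Klf12 (-1.10), Cpne4 (0.70) and Gripap1 (0.47), and by 0.022 in Topbp1 and -0.0059 in Eif3c.

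**Figure D1:**
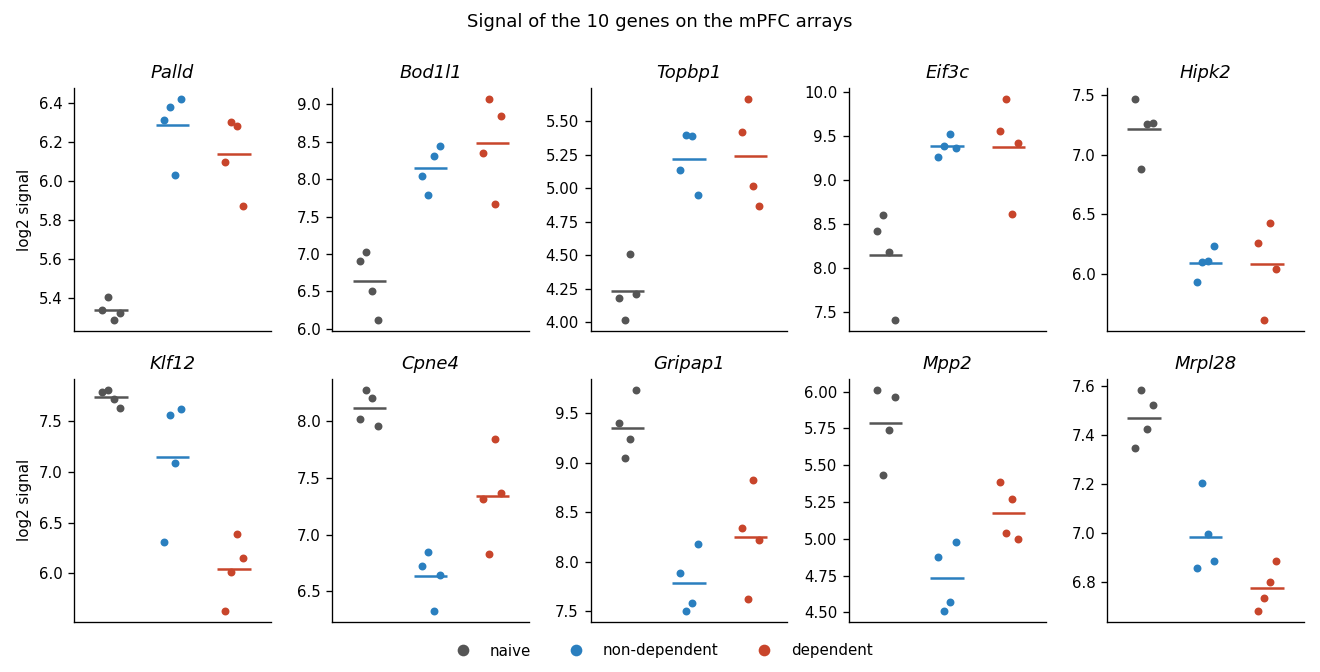
Log2 signal of the 10 genes on each mPFC array, by group (naive, non-dependent, dependent), with points for arrays and bars for group means. Palld, Bod1l1, Topbp1 and Eif3c are higher on all 8 drinking arrays than on the 4 naive arrays, and the other 6 genes are lower.

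Some quality measures of the mPFC arrays also differed between groups. The hybridization controls read 9.13 to 10.05 on naive, 10.10 to 10.27 on non-dependent and 9.47 to 9.81 on dependent arrays, so that naive and non-dependent arrays did not overlap. The summed level of 8 astrocyte markers, as their mean, was 11.99 to 12.17 in naive, 11.91 to 12.07 in non-dependent and 11.75 to 11.90 in dependent rats, and that of 9 striatal medium spiny neuron markers was 4.99 to 5.22, 4.74 to 4.91 and 4.74 to 5.32. The mean of 11 cortical glutamatergic markers overlapped, at 7.53 to 7.78, 7.71 to 7.80 and 7.68 to 7.88. Their part in the members' differences was not tested.

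By the chosen probe sets, the naive mPFC lay outside the range of the other regions for most of these genes. Palld (5.34), Bod1l1 (6.64), Topbp1 (4.23) and Eif3c (8.15) read lower in the naive mPFC than in any of the other 7 regions' naive means, which were 5.79 to 6.53, 8.12 to 10.33, 5.95 to 7.87 and 8.80 to 9.97. Hipk2 (7.22), Cpne4 (8.11), Gripap1 (9.36), Mpp2 (5.79) and Mrpl28 (7.47) read higher than in any other region, where naive means were 3.46 to 4.44, 3.48 to 7.61, 5.44 to 6.93, 3.63 to 4.02 and 4.74 to 5.65. Only Klf12 (7.73) lay within the range of the others, 5.64 to 7.96. In every member, the drinking rats' mPFC mean was on the side of the naive mean toward the other regions. The levels of Eif3c and Topbp1 depended on the probe set: the second Eif3c set read 10.50 in the naive mPFC against 8.37 to 8.69 in the other regions, the highest in place of the lowest, and the second Topbp1 set read 6.38, within the 5.77 to 6.97 of the others. For Palld and Eif3c the drinking mean reached the other regions: by the chosen sets it was 6.21 and 9.38, 0.0042 above and 0.014 below the mean of the other regions' naive means. Hipk2, at 6.09, stayed well above its range elsewhere, while Klf12 went past the mean of the other regions, from 0.49 above it in naive to 0.64 below it in drinking rats.

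This pattern was common on the array. A naive mPFC level outside the range of the other regions was found for 9 of the 10 members and for 67.2% of the 8989 genes tested, and a drinking mean displaced toward the other regions was found for 10 of 10 members and 70.1% of genes. Among the 84 genes past the threshold in the mPFC the shares were 94% and 95.2%. The level and the difference use the same naive mPFC arrays, so a naive array that read high or low enters both. The Gapdh 5′ control, which reads the transcript end far from the labelling primer, read 10.7 to 11.4 on all mPFC arrays and 7.90 to 10.1 in the other regions, and its part in the levels was not tested.

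Outside the mPFC, the level of 9 of the 10 members differed among the 7 regions in naive rats (limma F-test, adjusted p under 0.05), against 88.5% of all genes. The genes in this test had a mean above 4 over the naive arrays of all 8 regions. Hipk2 and Mpp2 entered only through their mPFC arrays, which chose them, as their means over the 7 regions were 3.92 and 3.78. That these 2 passed is therefore no support. Cpne4 had the steepest gradient. Its naive mean was 7.61 in the BLA, 6.64 in the NAcSh and 4.90 in the vBNST, then 4.03 in the NAcC, 3.93 in the dlBNST, 3.92 in the CeA and 3.48 in the VTA. The first 3 steps each passed the test (adjusted p = 0.0212 or 0.0219 for the smaller steps), while the last 4 regions did not differ from their neighbours beyond their spread and were near or below the level of 4 that served as the filter for dim genes.

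The VTA had the lowest naive level of 6 members, Bod1l1, Klf12, Cpne4, Gripap1, Mpp2 and Topbp1. Bod1l1 read 8.12 there and 9.23 in the next region up, the vBNST (adjusted p = 5.69e-05). Klf12 read 5.64 against 7.12 in the CeA (adjusted p = 8.53e-06), Gripap1 5.44 against 6.08 in the CeA (adjusted p = 5.51e-05) and Topbp1 5.95 against 6.63 in the vBNST (adjusted p = 0.000743). For Cpne4 and Mpp2 the VTA did not differ from its neighbour beyond the spread. Gripap1 was highest in the NAcC (6.93, against 6.45 in the dlBNST, adjusted p = 0.00147), and the regions between did not differ from their neighbours.

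The remaining members varied in smaller steps. Eif3c ran from 9.97 in the NAcC to 8.80 in the CeA and Topbp1 from 7.87 in the NAcSh, with neighbours that did not differ beyond their spread apart from the VTA step of Topbp1. Mrpl28 ran the other way, from 5.65 in the VTA to 4.74 in the NAcSh, with a step between the CeA (5.39) and the BLA (5.04) that passed at an adjusted p of 0.0428. Hipk2 was between 3.46 in the NAcC and 4.44 in the dlBNST, and Mpp2 between 3.63 and 4.02, both close to the filter. Palld was the member whose level did not pass (adjusted p = 0.0944), at 5.79 in the vBNST to 6.53 in the VTA.

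**Figure D2:**
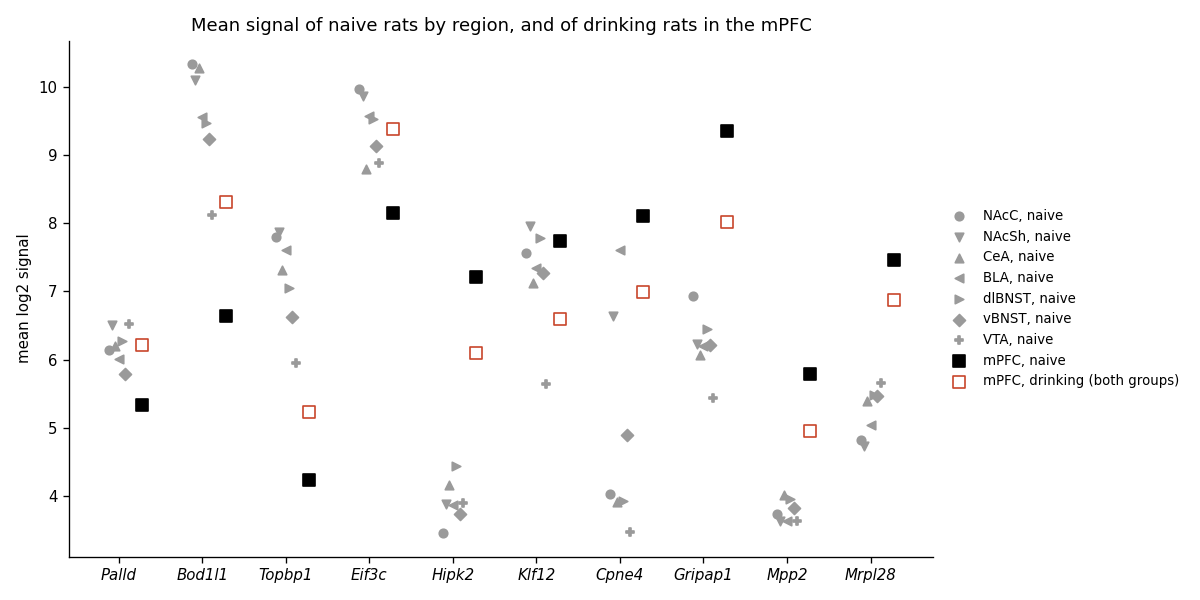
Mean log2 signal of each gene in naive rats, with a grey symbol for each of the 7 regions other than the mPFC, a black square for the naive mPFC and an open square for the mPFC of both drinking groups. The black square is the lowest symbol for Palld, Bod1l1, Topbp1 and Eif3c and the highest for Hipk2, Cpne4, Gripap1, Mpp2 and Mrpl28, and for the 9 genes other than Klf12 the open square lies nearer the grey symbols than the black one. Levels may be compared between regions within a gene, not between genes.

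Taken 1 region at a time, the group differences of the members outside the mPFC did not pass the threshold. None had an adjusted p under 0.05 in limma in any of the 7 regions or 4 contrasts, where among all genes drinking minus naive gave 0% in 6 regions and 0.0115% (1 gene) in the vBNST, and the other contrasts 0% but for dependent minus naive in the dlBNST (0.103%, 9 genes). Hipk2 was too dim to test in 4 regions, Mpp2 in 6 and Cpne4 in 2, which left 58 tests of a member in a region. At an unadjusted p under 0.05, drinking minus naive gave 11 of the 58 (19%), against 8.67% of the 60317 tests over all genes. These 11 were 3 regions each for Palld and Eif3c, 2 for Bod1l1 and 1 each for Topbp1, Gripap1 and Mrpl28. All 11 had the direction seen in the mPFC, against 63.1% of the tests over all genes at that p and 90% of those on the 84 genes that passed in the mPFC. Dependent minus naive gave 12 of 58 (20.7%, against 10.5% over all genes and 18.2% for the 84). All 12 had the mPFC direction (62.9% over all genes and 87.2% for the 84). Non-dependent minus naive gave 7 of 58 (12.1%, against 6.37% and 9.11%), all 7 in that direction (58.5% and 90.7%). Dependent minus non-dependent gave 9 of 58 (15.5%, against 7.47% over all genes and 7.42% for the 84). Of these 9, 5 had the direction of that contrast in the mPFC (53% over all genes and 48.6% for the 84). The 3 Eif3c results among the 11 hold for the chosen probe set. The contrasts share arrays. By the paper, all regions came from the same 4 rats per group, so tests in different regions are not independent.

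Without regard to p, the sign of drinking minus naive matched the mPFC for 8 of the 10 members in the dlBNST, 7 in the NAcSh, 6 in the BLA and the vBNST, 5 in the NAcC and the VTA and 4 in the CeA. Over all genes the match was 50.4% to 59.8% in the 7 regions.

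**Figure D3:**
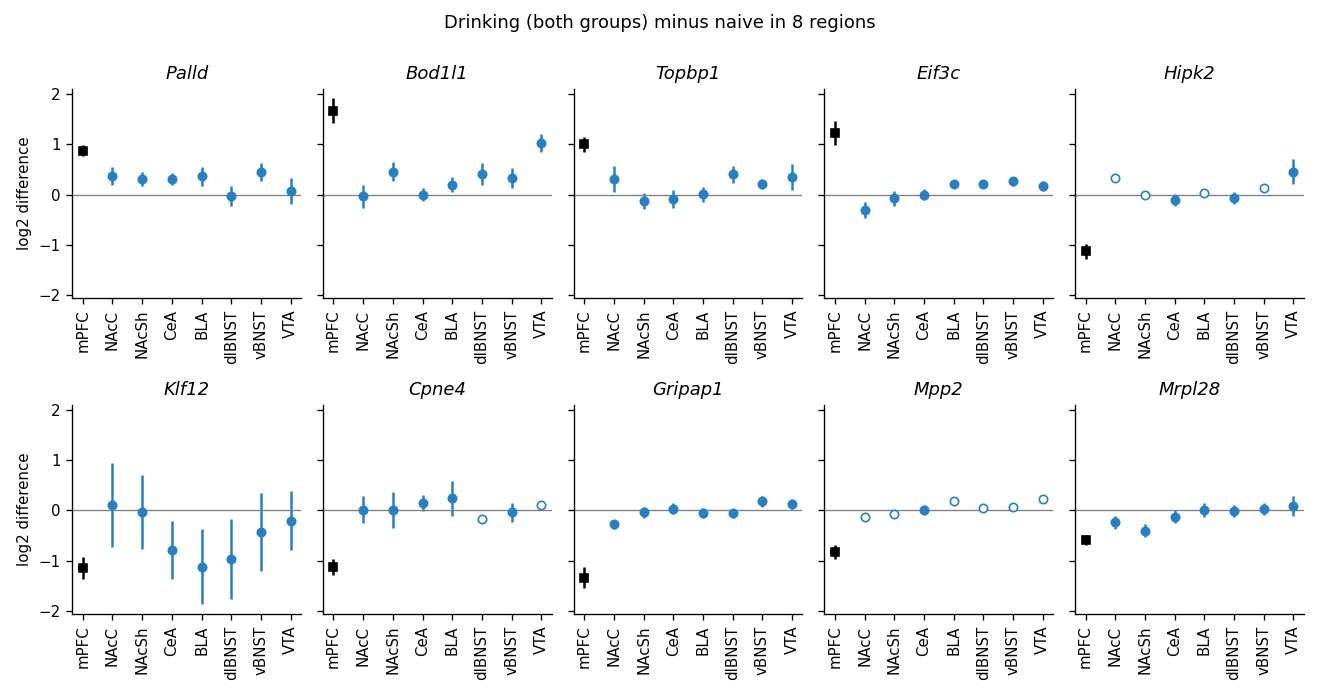
Drinking minus naive (log2, mean of both drinking groups minus naive) of each gene in the 8 regions, with lines of 1 SE from the region's limma fit, black squares for the mPFC and open circles for regions where the gene was too dim to test. The mPFC differences, which chose the genes, lie farthest from 0 for every gene, and outside the mPFC Bod1l1 in the VTA (1.02) and Klf12 in the BLA (-1.12) have the largest differences.

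Palld, the actin scaffold, was high mainly in dependent rats. In the CeA it read 6.37, 5.88, 6.16 and 6.42 in naive rats, 6.20, 6.13 and 6.10 in non-dependent rats and 7.02, 7.09, 6.74 and 6.71 in dependent rats. The dependent arrays lay above all others, by 0.68 ± 0.13 (SE) over naive (limma adjusted p = 0.382) and 0.75 ± 0.14 over non-dependent (adjusted p = 0.536). Groups did not overlap in that way, with the first group higher, for 1.49% and 2.11% of genes. In the BLA, Palld read 5.72, 5.89, 6.30 and 6.12 in naive rats, 5.46, 6.20 and 6.59 in non-dependent rats and 6.88, 6.50, 6.79 and 6.50 in dependent rats, a dependent minus naive difference of 0.66 ± 0.21 (adjusted p = 0.772) with groups that did not overlap (1.32% of genes, higher). In the vBNST it read 5.48, 5.50, 6.25 and 5.91, then 6.08, 5.94, 6.07 and 5.78, then 6.05, 6.97 and 6.49, and the groups overlapped at a difference of 0.72 ± 0.22 (adjusted p = 0.179).

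The accumbens gave smaller Palld differences, with dependent minus naive at 0.49 in the NAcC and 0.43 in the NAcSh and groups that overlapped. In the NAcSh the arrays read 6.26, 6.86, 6.59 and 6.32 in naive, 6.45, 6.95, 6.57 and 6.86 in non-dependent and 7.12, 6.65, 6.90 and 7.10 in dependent rats. In the dlBNST the difference was -0.035, so that Palld was higher in dependent than in naive rats in 6 of the 7 regions. The lowest of the 7 was that of the dlBNST and the highest that of the vBNST. In the CeA the mean of 9 oligodendrocyte markers was 8.81 to 9.03 in naive, 8.52 to 8.80 in non-dependent and 8.22 to 8.57 in dependent rats, with no overlap of naive and dependent, as was the case for 10 microglial markers (5.18 to 5.28 in naive, 4.94 to 5.11 in dependent rats). Their part in the Palld difference was not tested.

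Bod1l1, the fork-protection factor, stood out in the VTA. Its arrays read 7.99, 8.41, 8.38 and 7.71 in naive rats, 8.44, 9.14 and 8.95 in non-dependent rats and 9.54, 9.30, 9.74 and 9.18 in dependent rats. No 2 groups overlapped, though the gaps were small (8.41 to 8.44 and 9.14 to 9.18). The share of all genes with such an order of 3 groups was not counted. Drinking minus naive was 1.02 ± 0.18 (SE), with the smallest unadjusted p of any member in that contrast (0.000122), and an adjusted p of 0.882. Groups did not overlap in this contrast, with drinking higher, for 0.238% of genes. Dependent minus naive was 1.32 ± 0.20 (adjusted p = 0.309, and 0.0373 to 0.910 as single arrays were left out; 1.92% of genes not overlapping and higher), and non-dependent minus naive 0.72 ± 0.22 (adjusted p = 0.675; 3.31%). The mean of 7 dopamine neuron markers in the VTA overlapped between groups, at 7.85 to 9.02, 8.57 to 9.10 and 8.44 to 9.02. Actb 3′ minus 5′ signal was 6.78 to 7.93 on naive, 8.05 to 8.27 on non-dependent and 7.83 to 8.43 on dependent VTA arrays, and its part was not tested.

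Elsewhere Bod1l1 differed less. In the NAcSh drinking minus naive was 0.46 ± 0.20 (adjusted p = 0.586). In the dlBNST the dependent arrays read 9.95, 10.65, 9.32 and 10.67 against 9.51, 9.29, 9.30 and 9.75 in naive rats, overlapping, with a difference of 0.68 ± 0.25 (adjusted p = 0.228). Dependent minus naive was above 0 in 6 of the 7 regions, from -0.069 to 1.32.

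Outside the mPFC, Topbp1, which activates ATR, had its smallest p in the bed nucleus, while its largest dependent minus naive difference, in the VTA (0.54 ± 0.29, adjusted p = 0.650), came with overlapping groups. In the vBNST it read 6.55, 6.49, 6.78 and 6.69 in naive rats, 6.62, 6.80, 6.33 and 6.63 in non-dependent rats and 7.09, 7.05 and 7.08 in dependent rats. The 3 dependent arrays were tightly grouped above all others, by 0.45 ± 0.12 (SE) over naive (limma adjusted p = 0.143; 5.01% of genes not overlapping and higher) and 0.48 ± 0.12 over non-dependent (adjusted p = 0.792; 3.24%). With the vBNST array that was left out, dependent minus non-dependent turned to -0.11. The second Topbp1 set gave -0.29 ± 0.25 (adjusted p = 0.613) for dependent minus naive there, the opposite sign. In the dlBNST drinking minus naive was 0.41 ± 0.17 (adjusted p = 0.348), with overlapping groups.

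Eif3c, of translation initiation, showed small differences with narrow spreads in the bed nucleus. In the dlBNST it read 9.49, 9.46, 9.56 and 9.59 in naive rats, 9.64, 9.72, 9.81 and 9.75 in non-dependent rats and 9.77, 9.70, 9.81 and 9.75 in dependent rats, a drinking minus naive difference of 0.22 ± 0.071 (SE, limma adjusted p = 0.267; 0.620% of genes not overlapping and higher). In the vBNST it read 9.15, 9.08, 9.18 and 9.12, then 9.37, 9.24, 9.24 and 9.21, then 9.50, 9.70 and 9.39, a difference of 0.26 ± 0.083 (adjusted p = 0.210; 0.483%). All drinking arrays lay above all naive arrays in both subregions, but by this probe set alone: the second Eif3c set gave -0.25 ± 0.11 (adjusted p = 0.365) in the dlBNST and -0.051 ± 0.15 (adjusted p = 0.917) in the vBNST. Several other measures moved in the vBNST, where Palld and Topbp1 also differed. Gapdh 3′ minus 5′ signal was 2.40 to 2.95 on naive, 1.76 to 2.07 on non-dependent and 1.75 to 1.82 on dependent arrays, and the mean of 11 cortical glutamatergic markers was 4.93 to 5.18, 5.09 to 5.33 and 5.26 to 5.43, that of 10 endothelial and mural markers 5.68 to 5.83, 5.83 to 5.96 and 5.87 to 6.02, and that of 6 choroid plexus and ependyma markers 3.47 to 3.81, 3.66 to 4.39 and 3.94 to 4.35. Naive and dependent arrays did not overlap in any of these 4, and their part in the vBNST differences was not tested. In the dlBNST, 9 medium spiny neuron markers (5.52 to 5.66 in naive, 5.67 to 5.81 in dependent rats) and 7 dopamine neuron markers (3.61 to 3.78 and 3.47 to 3.55) did not overlap either. The dopamine means lay below the filter of 4 and the choroid plexus means of the vBNST near it. Of the cortical markers, Slc17a7 (3.27), Neurod6 (3.29) and Tbr1 (2.16) were dim in the vBNST. Such means need not reflect cell content. Only measures without overlap are named here, and the part of the dlBNST markers was not tested.

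Eif3c had another order in the VTA: 8.86, 8.99, 8.74 and 8.93 in naive rats, 9.42, 9.48 and 9.09 in non-dependent rats and 8.65, 8.88, 8.77 and 8.79 in dependent rats. There the non-dependent arrays lay above both other groups by this probe set (3.31% of genes not overlapping and higher than naive). Dependent minus non-dependent was -0.56 ± 0.12 (limma adjusted p = 0.121; 7.06% of genes not overlapping and lower). With the VTA array that was left out, that difference became 0.18. The second Eif3c set read 8.47 to 8.74 in naive, 8.65 to 8.89 in non-dependent and 8.47 to 9.19 in dependent rats of the VTA. Its groups overlapped.

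Of the members that were lower in the drinking mPFC, Gripap1 and Mrpl28 had their largest differences in the accumbens. Gripap1 in the NAcC read 6.81, 7.02, 6.85 and 7.04 in naive rats, 6.60, 6.56, 6.46 and 6.56 in non-dependent rats and 6.74, 6.80, 6.83 and 6.68 in dependent rats. The non-dependent arrays lay below the other groups, by -0.39 ± 0.10 (SE) against naive (limma adjusted p = 0.720; 3.88% of genes not overlapping and lower). Dependent arrays above non-dependent arrays without overlap were found for 1.22% of genes. Drinking minus naive was -0.28 ± 0.086 (limma adjusted p = 0.423). In the NAcC the mean of 8 interneuron markers was 7.26 to 7.38 in naive and 7.07 to 7.14 in non-dependent rats and that of 9 oligodendrocyte markers 8.39 to 8.62 and 8.19 to 8.36, both without overlap, and their part was not tested. Mrpl28 in the NAcSh read 4.70, 4.78, 4.80 and 4.67, then 4.61, 4.18, 4.24 and 4.41, then 3.92, 4.45, 4.26 and 4.59. All drinking arrays lay below the naive arrays, at a difference of -0.40 ± 0.13 (adjusted p = 0.548; 0.614% of genes not overlapping and lower). Naive and non-dependent arrays of the NAcSh also did not overlap in Gapdh 3′ minus 5′ (0.74 to 1.10 and 1.36 to 1.63) or Actb 3′ minus 5′ (7.20 to 7.98 and 8.09 to 8.75), whose part was not tested.

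Hipk2, Cpne4 and Mpp2 gave little outside the mPFC. Their smallest p for drinking minus naive came with 0.46 ± 0.25 (SE) for Hipk2 in the VTA (adjusted p = 0.977), 0.15 ± 0.16 for Cpne4 in the CeA (adjusted p = 0.848) and 0.0050 ± 0.10 for Mpp2 in the CeA (adjusted p = 0.995), the only region outside the mPFC where Mpp2 was tested. Hipk2 in the VTA read 4.29, 3.85, 3.60 and 3.84 in naive rats, 4.23, 4.12 and 5.23 in non-dependent rats and 3.88, 4.48, 3.71 and 4.61 in dependent rats, and without the array at 5.23 the difference was 0.28. All 3 differences were above 0, where those of the mPFC were below.

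A fit of the 7 regions together, with a term for each region, tested 8 members (Hipk2 and Mpp2 were too dim) among 8668 genes. Palld and Bod1l1 passed for drinking minus naive, 2 of 8 against 8.49% of all genes, where 199 genes rose and 537 fell. Palld rose by 0.27 ± 0.072 (SE, limma adjusted p = 0.0127) and Bod1l1 by 0.34 ± 0.082 (adjusted p = 0.00540), at ranks 254 and 113 by p. Both are in the mPFC direction. The other 6 did not pass: Klf12 was at -0.48 ± 0.29 (adjusted p = 0.308), Topbp1 at 0.15 ± 0.075 (0.196), Mrpl28 at -0.10 ± 0.054 (0.240), Eif3c at 0.060 ± 0.047 (0.458), Cpne4 at 0.055 ± 0.10 (0.781) and Gripap1 at -0.016 ± 0.035 (0.828). The median of all genes was -0.024. Palld did not pass without the NAcC (0.25, adjusted p = 0.0504) and Bod1l1 not without the VTA (0.23, adjusted p = 0.0815), and neither passed when all 96 arrays were kept (adjusted p = 0.334 and 0.839), where 24 genes did.

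For both genes the larger difference was that of the dependent rats. Dependent minus naive was 0.44 ± 0.083 (SE) for Palld (limma adjusted p = 0.000247, rank 34 of 8668) and 0.46 ± 0.094 for Bod1l1 (adjusted p = 0.000790, rank 53), where 11.6% of genes passed. Non-dependent minus naive did not pass for either, at 0.094 ± 0.084 (adjusted p = 0.609) and 0.22 ± 0.096 (adjusted p = 0.215), where 1.87% of genes passed. The direct comparison of the drinking groups passed for Palld, with dependent above non-dependent rats by 0.35 ± 0.085 (adjusted p = 0.0210, rank 51, against 1.22% of genes), but not for Bod1l1 (0.24 ± 0.097, adjusted p = 0.214). This Palld result did not pass without the CeA (0.28, adjusted p = 0.136) or without the NAcC, the NAcSh or the BLA (adjusted p 0.0535 to 0.0558). It also did not pass when the arrays of a group and replicate number were averaged over the regions. The fit took arrays of different regions as nearly independent, although by the paper they came from the same rats. No member's drinking minus naive difference varied among the 7 regions past the threshold (adjusted p = 0.298 for Eif3c, 0.442 for Gripap1, 0.443 for Bod1l1 and 0.895 for Palld), against 0.0808% of genes, so the VTA difference of Bod1l1 was not shown to exceed that of other regions.

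**Figure D4:**
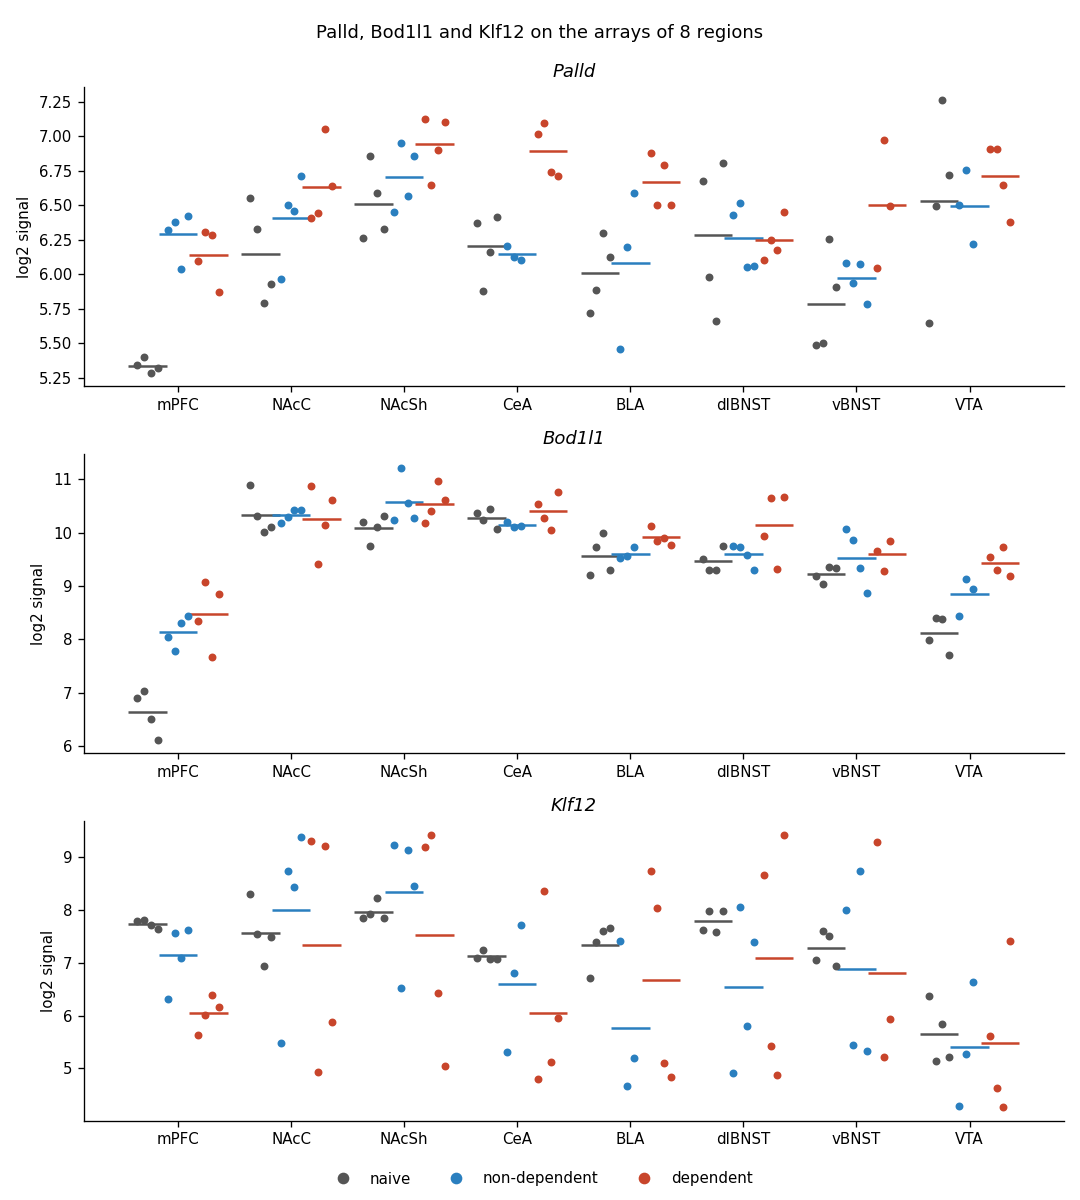
Log2 signal of Palld, Bod1l1 and Klf12 on every array kept, by region and group, with points for arrays and bars for group means. Palld is highest in dependent rats in the CeA and the BLA, and Bod1l1 is lowest in naive and highest in dependent rats in the VTA. Outside the mPFC the Klf12 points of the drinking rats scatter above and below the naive points. In the mPFC they all lie below them.

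Klf12, the repressor, had a wider spread in drinking than in naive rats. Its standard deviation within groups, pooled over the 7 regions, was 0.38 in naive rats, 1.47 in non-dependent and 1.99 in dependent rats. The ratio of drinking to naive was 4.61, the third highest of 8668 genes after Zrsr2-ps1 (6.19) and Plaat3 (5.89), where the median ratio was 1.06 and 0.692% of genes (60) reached 2. This was seen after the values were examined, and no test of it was made. In 6 regions, all but the mPFC and the VTA, the 24 naive arrays lay between 6.72 and 8.30, while the 45 drinking arrays ran from 4.67 to 9.42, with 22 below the naive range, 16 above it and 7 within it.

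Single regions show the split of Klf12. In the CeA it read 7.08, 7.25, 7.08 and 7.06 in naive rats, 5.30, 6.81 and 7.71 in non-dependent rats and 4.80, 8.35, 5.12 and 5.95 in dependent rats. In the BLA it read 6.72, 7.39, 7.59 and 7.66, then 7.41, 4.67 and 5.19, then 8.74, 8.04, 5.09 and 4.84. In the NAcC the dependent arrays read 9.30, 4.94, 9.21 and 5.87 against 8.30, 7.54, 6.93 and 7.48 in naive rats. High and low arrays sat within the same group and did not carry the same replicate number from region to region. The largest mean difference, in the BLA (-1.12 ± 0.75 (SE), adjusted p = 0.868), lay within this spread. The limma fit takes 1 spread for all groups, which Klf12 does not have. In the mPFC the naive arrays had an SD of 0.078 and the drinking arrays 0.48.

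A second probe set of their own was present for 4 members, and it did not always read alike. The brightest Eif3c set gave 1.23 for drinking minus naive in the mPFC, while the other gave -0.66 ± 0.15 (SE), with arrays at 10.48, 10.37, 10.67 and 10.47 in naive, 9.44, 10.00, 9.59 and 9.38 in non-dependent and 10.08, 9.90, 10.53 and 9.75 in dependent rats. The direction of Eif3c thus depends on the probe set, in the mPFC and in the bed nucleus, and its order in the VTA was seen by the brightest set alone. The second Topbp1 set gave 0.025 ± 0.18, with arrays at 6.44, 6.72, 6.55 and 5.82, then 6.46, 6.48, 6.71 and 6.46, then 6.24, 6.16, 6.81 and 5.96, where the chosen set gave 1.0. The second sets of Klf12 and Mpp2 were dim, at 3.16 to 3.46 and 2.72 to 2.93 by region, and gave -0.028 and 0.14. Over the 80 arrays of the other regions, after each region's mean was taken out, the pairs of sets correlated at -0.14 (Eif3c), 0.38 (Topbp1), 0.14 (Mpp2) and 0.084 (Klf12). None of the second sets passed the threshold outside the mPFC.

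The relatives of the members were counted in the same 7-region fit, for drinking minus naive. Of 40 other large-subunit proteins of the mitochondrial ribosome, the machinery of Mrpl28, 4 fell (10%, against 6.2% of all genes) and none rose: Mrpl15 by 0.23 (limma adjusted p = 0.00392), Mrpl44 by 0.19 (0.00584), Mrpl22 by 0.20 (0.00596) and Mrpl43 by 0.15 (0.0198). The list's median was -0.054 and 32 of 40 were below 0, against 62.3% of all genes, and the upward gene with the smallest p was Mrpl45 at 0.091 (0.102). Of 18 genes of recycling endosomes and AMPA receptor traffic, around Gripap1, 3 fell (16.7%): Stx12, a recycling-endosome SNARE, by 0.19 (0.00571), Rab4a, a small GTPase of fast recycling, by 0.18 (0.0293), and Rabep1, a Rab effector, by 0.083 (0.0376). The AMPA receptor subunit Gria1 was at 0.25 (0.0840), and the median of the list was -0.0068.

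Around Topbp1 and Bod1l1, 1 of 12 genes of the replication stress response (8.33%) fell, the single-strand binding subunit Rpa2, by 0.13 (limma adjusted p = 0.0324), while Rif1 was at 0.23 (0.0631) and the median was -0.029. None of 10 other eIF3 subunits passed, with 9 of 10 below 0, a median of -0.044, Eif3j at -0.088 (0.134) and Eif3k at 0.019 (0.868). No call was made among 10 palladin relatives and actin partners (Actn4 0.11, adjusted p = 0.0551, and Evl -0.069, 0.192), 11 HIPK kinases and partners (Ep300 0.098, 0.0971, and Ctbp1 -0.16, 0.149), 13 Kruppel-like and Sp factors (Klf4 0.27, 0.101, and Klf16 -0.085, 0.171), 5 copines (Cpne5 0.13, 0.301, and Cpne8 -0.025, 0.845) or 14 membrane-associated guanylate kinases and partners (Lin7b -0.16, 0.0588, and Cadm1 0.073, 0.357). Their medians ran from -0.022 to 0.045 (the copines), against -0.024 for all genes. In the mPFC none of these lists held a gene past the threshold, where 21 genes were higher and 63 lower.

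Markers of other cell types gave 3 calls over the 7 regions, in a fit that called 8.49% of all genes. Single calls in these short lists are not a result about a cell type. Hbb, beta globin of red cells, rose by 0.34 (limma adjusted p = 0.00867), 1 of 2 blood genes tested. Adora2a, the adenosine receptor of striatal neurons, rose by 0.36 (0.0321), 1 of 6, and Aldh1a1, an enzyme of ventral dopamine neurons, fell by 0.53 (0.00442), 1 of 6. At an unadjusted p under 0.05, 4 of the 6 striatal markers were higher (66.7% against 24.1% of all genes in either direction). No oligodendrocyte marker of 9 passed the adjusted threshold, while 8 were below 0 at a median of -0.12 and 5 (55.6%) were lower at an unadjusted p under 0.05. No call was made among the cortical glutamatergic (7 tested), interneuron (7), astrocyte (8), microglial (4), endothelial and mural (6) and choroid plexus (1) markers. Their part in the differences of Palld and Bod1l1 was not tested.

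For each member, the genes whose signal ran most like it over the 80 arrays of the 7 regions, after each region's mean was taken out, were named by Pearson's r. For Palld they were Ston2 (0.56) and Fbxl20 (0.53), for Bod1l1 Luc7l (0.78) and Wbp4 (0.73), both linked to splicing, and for Topbp1 Nedd9 (0.52) and Kansl1 (0.51). For Eif3c they were Usp7 (0.52) and Mrps16 (0.52), for Hipk2 Tnk2 (0.64) and Bola2 (0.63), for Klf12 Pxmp4 (0.69) and Csnk1a1 (0.65), and for Cpne4 Usp46 (0.53) and Ctdspl2 (0.53). For Gripap1 they were Ubxn6 (0.52) and Ccdc97 (0.50), for Mpp2 Tmem214 (0.64) and Pdlim7 (0.63), and for Mrpl28 Uqcrc1 (0.66), of the respiratory chain, and Mrps23 (0.65), of the small mitochondrial ribosomal subunit. The arrays share group differences and labelling quality, and the values are a description. No member was among the nearest genes of another.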

How the data were processed

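RNA of 8 microdissected regions was measured on 96 Affymetrix rat RG230 2.0 arrays. The authors deposited log2 signals per probe set made with GCRMA, and the submitters' processing notes name GCRMA 2.36.0 and R 3.03. Of 31099 probe sets, 20832 name 1 gene in the platform annotation, 436 several and 9831 none. The probe set with the highest mean stood for a gene.

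Groups and replicate numbers came from the labels. Each region was fitted with limma 3.58.1 in R 4.3.3 (3 groups, genes with a mean above 4, Benjamini-Hochberg over all genes, threshold 0.05), and the 7 regions outside the mPFC together with region terms and group by replicate number as a random block (estimated correlation -0.0175). Drinking minus naive is the mean of both drinking groups minus naive. The arrays of a group came from 4 rats over all regions, but whether equal replicate numbers mark 1 rat is not stated. The random block may therefore not follow the rats, and p-values measure the spread between these samples. Figures were drawn with matplotlib 3.10.9.

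The members and gene lists were chosen with earlier results of these data known. Named genes are the members, list genes past the threshold or otherwise those with the smallest p each way, each member's 2 nearest genes, and the region of each member's smallest p. No list or set was tested. The fits were tested on simulated data before use, with arrays drawn independently, so that shared rats were not simulated. The 7-region fit recovered 60 of 71 changes of 0.25, 62 of 63 of 0.5 and 66 of 66 of 1, and also called 23 of 8460 unchanged genes. The NAcC fit recovered 2 of 69 changes of 0.25 and 24 of 63 of 0.5, and called 6 of 8236 unchanged genes.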

Additional observations from a re-analysis of the deposited data

Results flagged for a closer look

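Over the members, 200 sets of 4 arrays of 1 region and group were screened for an array whose gap to the nearest other was large against the whole range, a screen that flags about 1 in 20 sets by chance, and 5 sets had one. Klf12 read 7.25 on naive array 2 of the CeA, against 7.06 to 7.08 on the others. Cpne4 read 7.16 on dependent array 3 of the BLA, against 8.32 to 8.51, and Topbp1 read 7.44 on the same array, against 7.79 to 7.86. Mpp2 read 4.15 on naive array 3 of the CeA, against 3.96 to 3.99, and 3.76 on dependent array 3 of the NAcSh, against 3.49 to 3.52.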

How the results depend on the processing

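Apart from genes that a filter took out, the cause of each change below was not tested. With all 96 arrays kept, the 7-region fit gave 24 genes for drinking minus naive in place of 736 and 0 members in place of 2. Palld was then at 0.23 (adjusted p = 0.334) and Bod1l1 at 0.088 (0.839), dependent minus naive of Bod1l1 at 0.32 (0.999), its non-dependent minus naive at -0.15, dependent minus non-dependent of Palld at 0.43 (0.0597), and Eif3c at -0.038. In single regions that setting turned dependent minus non-dependent to -0.11 for Topbp1 in the vBNST and 0.18 for Eif3c in the VTA. Without the NAcC, 1 member passed, Palld was at 0.25 (adjusted p = 0.0504) and Gripap1 at 0.030. Without the VTA, 1 member passed and Bod1l1 was at 0.23 (0.0815). Dependent minus non-dependent of Palld was 0.37 without the NAcC (0.0551), 0.37 without the NAcSh (0.0558), 0.28 without the CeA (0.136), 0.31 without the BLA (0.0535), and 0.34 from 4 averages per group, 1 for each replicate number (0.0721). The count of genes was 291 from those averages, 179 without the dlBNST and 396 without the vBNST. Quantile normalization put Gripap1 at 0.013, the mean of all probe sets put Eif3c at -0.022, and array weights put Mpp2 in the CeA at -0.030 for dependent minus non-dependent. With only genes above 6, Hipk2, Cpne4, Mpp2 and Mrpl28 were too dim to test, and 5 members differed in level among the regions in place of 9.

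The 1 gene past the threshold over the 7 region fits became 0 with all arrays, 0 after quantile normalization, 12 after median scaling, 8 with only genes above 6 and 67 with array weights. Leaving out each array gave 0 to 5. The replicate numbers did not pair the arrays: no region had every same-number pair correlated above 0.1 (in the mPFC, -0.060 to 0.37). A replicate block gave 19 genes over the region fits and, in the 7-region fit, 708 genes, with Palld at 0.27 (adjusted p = 0.0146) and Bod1l1 at 0.34 (0.00638), and changed no other call reported here.

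Leaving out each array in turn, the 7-region fit gave 541 to 807 genes and the same 2 calls throughout, with Palld at 0.24 to 0.30 and Bod1l1 at 0.31 to 0.38, dependent minus non-dependent of Palld at 0.31 to 0.37, and 9 to 10 members that differed in level. In the VTA, dependent minus naive of Bod1l1 passed without dependent array 3 (1.22, adjusted p = 0.0373), and its adjusted p was up to 0.910 without the others. In the CeA, Mpp2 ranged from -0.029 to 0.048 for drinking minus naive and from -0.041 to 0.096 for dependent minus non-dependent, so that its sign depended on single arrays. With at most 4 arrays in a group, small differences within 1 region could not be seen.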
